A study of Mus musculus with 16 samples.

Results

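Neurotrophin and GDNF receptors and ligands were followed from mouse embryonic stem (ES) cells into embryoid bodies with and without Taf4a. The 9 genes were the receptors Ngfr, Ntrk2, Ntrk3, Ret, Gfra1 and Gfra2 and the ligands Bdnf, Ntf3 and Gdnf, of 27807 genes in the table. They were taken by name, but the set was chosen on these same libraries with earlier results in view. Their levels and their differences between genotypes are therefore given as a description with no test. Where a fit over all genes calls a member, the call is part of that description. All 9 were found. Of these, 8 had a mean of at least 10 normalised counts over the libraries, and Gdnf fell below that limit.

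In 16 libraries of polyadenylated RNA, 8 groups had 2 libraries each. WT lines were compared with lines homozygous for a Taf4a null allele (KO), made from blastocysts of heterozygous crosses, with 2 independent lines of each genotype. ES cells of both genotypes were grown with LIF on mitotically inactivated embryonic fibroblasts, and embryoid bodies are floating aggregates made from them. Both genotypes were sampled as embryoid bodies not yet exposed to all-trans retinoic acid (EB4), 1 day into exposure (EB5), and as EB8, under continued exposure, which the labels call neural precursor cells. The labels do not tie a replicate number to a line. Taf4a is a subunit of TFIID, the factor that carries the TATA-binding protein to promoters.

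Neurotrophins are secreted growth factors that signal through Trk receptor tyrosine kinases. Ntrk2 encodes TrkB, the receptor of Bdnf, and Ntrk3 encodes TrkC, the receptor of Ntf3 (neurotrophin-3). Ngfr encodes p75, a receptor of the TNF receptor family that binds all mature neurotrophins and their pro-forms. GDNF family ligands first bind a co-receptor anchored in the membrane, Gfra1 for Gdnf and Gfra2 for neurturin, and the complex then engages the receptor tyrosine kinase Ret. In the embryo Ret and Gfra1 are known from enteric and autonomic progenitors, motor neurons and the nephric duct, and Ntrk2 and Ntrk3 from the neural tube and its neurons.

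Promoter windows are shown for Ngfr, Ntrk2 and Gfra1, whose levels carry the differences described below. They are RefSeq windows of 300 bases, from 250 bases before to 50 after the annotated start. Each matched NCBI37 at 1 place, namely chr11:95448963-95449262 on the minus strand for Ngfr, chr13:58907680-58907979 on the plus strand for Ntrk2 and chr19:58529839-58530138 on the minus strand for Gfra1. Capitals mark the letters of the motifs searched on both strands, which were the TATA box core (TATAAA), the CCAAT box, the GC box (GGGCGG), the core of the cAMP response element (TGACG) and the nuclear receptor core (AGGTCA). The motifs share no overlapping letters in these windows.
Ngfr: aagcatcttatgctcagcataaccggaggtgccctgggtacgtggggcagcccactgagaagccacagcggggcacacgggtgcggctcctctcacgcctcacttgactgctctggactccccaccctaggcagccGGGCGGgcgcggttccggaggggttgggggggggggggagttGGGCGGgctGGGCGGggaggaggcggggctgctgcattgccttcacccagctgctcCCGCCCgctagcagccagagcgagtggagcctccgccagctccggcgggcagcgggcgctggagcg
Ntrk2: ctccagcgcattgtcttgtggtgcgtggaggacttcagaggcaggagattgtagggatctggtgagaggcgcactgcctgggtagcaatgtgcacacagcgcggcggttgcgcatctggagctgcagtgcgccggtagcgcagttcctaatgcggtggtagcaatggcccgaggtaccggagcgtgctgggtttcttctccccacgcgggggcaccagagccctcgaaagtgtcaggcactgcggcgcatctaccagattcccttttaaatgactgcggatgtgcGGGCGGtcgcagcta
Gfra1: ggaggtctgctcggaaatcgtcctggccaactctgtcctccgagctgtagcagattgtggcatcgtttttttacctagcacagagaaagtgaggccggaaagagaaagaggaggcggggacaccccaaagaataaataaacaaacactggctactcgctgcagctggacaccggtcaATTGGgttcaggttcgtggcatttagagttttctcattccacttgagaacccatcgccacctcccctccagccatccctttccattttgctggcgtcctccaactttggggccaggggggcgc

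The Ngfr window was 71.7% G and C and held 4 GC boxes. The Ntrk2 window was 61.3% G and C and held 1 GC box, which began 35 bases past the start. The Gfra1 window was 54.0% G and C and held no GC box, but held a CCAAT box in reverse orientation that began 73 bases before the start. Of all 32851 RefSeq promoter windows of this length, 35.7% held a GC box and 37.4% a CCAAT box. The TATA box core (in 13.6% of all windows), the cAMP response core (20.8%) and the nuclear receptor core (16.3%) were not among the letters of the 3 windows. A match describes the letters only. RefSeq windows were also held for Bdnf (7 starts), Ntf3 and Gdnf (2 starts each), so that 6 of the 9 genes were covered. Of these windows, the first of Gdnf held a TATA box core, which began 31 bases before the start.

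Library depth ran from 22442118 to 40711826 reads. Every ES library had at least 32631020 reads and every embryoid body library at most 27685306. Depth, and any sequencing batch behind it, therefore cannot be told apart from the difference between ES cells and embryoid bodies. No sequencing batch is named in the sample titles. Taf4a had 1591 to 1960 normalised counts in the WT and 1973 to 2400 in the KO libraries, but a count per gene does not resolve the deleted exons and does not check the labels. The level of a chromosome, the median deviation of its genes from the mean of their stage on the log2 scale, stood apart in several libraries. On chromosome 11, where Ngfr lies, it was 0.16 to 0.26 in KO replicate 1 at all 4 stages and -0.11 to -0.03 in the other 12 libraries. On chromosome 8 it was 0.35 to 0.37 in the 3 embryoid body libraries of WT replicate 1. On chromosome X it was 0.36 in WT ES replicate 2 and 0.25 to 0.54 in KO replicate 2 at all 4 stages. The KO replicates thus differed from each other in whole chromosomes at every stage. The WT replicates did so on chromosome X in ES cells, at -0.37 and 0.36, and on chromosome 8 in the embryoid bodies. WT ES replicate 2 also had no reads of Ddx3y, a gene of the Y chromosome, whereas the other WT libraries had 174 to 1237 normalised counts of it and the 8 KO libraries 0 to 35.9. Genotype and expression from the Y chromosome therefore cannot be told apart between KO and WT in the embryoid bodies. Some of the results on WT ES cells, but not all, are given with and without WT ES replicate 2.

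Of the 3 neurotrophin receptors, Ngfr was higher in KO than in WT at ES, EB4 and EB5, and Ntrk2 and Ntrk3 were lower in KO than in WT at EB4, EB5 and EB8. All levels below are normalised counts (reads scaled by 1 factor per library, as deposited) in replicates 1 and 2. Differences are KO minus WT on the scale of log2(normalised count + 1) with the standard error (SE) of the limma fit. With 2 libraries a group, values can lie apart without a genotype difference. The share of all genes whose groups did not overlap was not counted, so that non-overlap is a description only.

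Ngfr (ENSMUSG00000000120, NCBI37 chromosome 11, 95430132 to 95449049, minus strand) had 654 and 730.3 normalised counts in WT ES cells and 824 and 1218 in KO ES cells. At EB4 Ngfr was at 71.2 and 59.0 in the WT and at 308 and 568 in the KO libraries, and at EB5 it was at 105 and 63.7 in the WT and at 224 and 298 in the KO libraries. At EB8 Ngfr was at 373 and 441 in the WT and at 257 and 522 in the KO libraries. The groups did not overlap at ES, EB4 and EB5, with KO above WT, and at EB8 the WT values lay between those of KO.

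The WT mean of Ngfr was thus 10.6-fold lower at EB4 than in ES cells, while the KO mean was 2.33-fold lower. From EB5 to EB8 the WT mean was 4.81-fold higher and the KO mean 1.495-fold higher. The log2 difference between KO and WT was 0.53 (SE 0.40) at ES, 2.67 at EB4, 1.64 at EB5 and -0.14 at EB8. Leaving out each library in turn gave 0.25 to 0.82 at ES (0.61 without WT ES replicate 2), 2.23 to 3.11 at EB4, 1.28 to 2.00 at EB5 and -0.65 to 0.36 at EB8. The higher KO level of Ngfr at ES, EB4 and EB5 was that of replicate 2, whose chromosome 11 level was -0.08 to -0.03 at these stages.

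Ntrk2 (ENSMUSG00000055254, NCBI37 chromosome 13, 58907957 to 59235331, plus strand) stood at 63.7 and 52.6 normalised counts in the WT and at 26.6 and 66.5 in the KO libraries of ES cells. At EB4 Ntrk2 was at 499.8 and 679.8 in the WT and at 216 and 107 in the KO libraries. Both genotypes thus had more of it at EB4 than in ES cells. At EB5 Ntrk2 was at 1565 and 954 in the WT and at 501 and 153 in the KO libraries. At EB8 Ntrk2 was at 601 and 1069 in the WT and at 90.7 and 70.3 in the KO libraries. The groups overlapped at ES, and at each embryoid body stage both KO values lay below both WT values.

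The WT mean of Ntrk2 was highest at EB5, with 1260 ± 432 (SD, n = 2), and stood at 835 ± 331 at EB8. The KO mean peaked at 327 ± 246 at EB5 and was 80.5 ± 14.5 at EB8, which was 10.4-fold below WT. The log2 difference was -0.45 (SE 0.58) at ES, -1.93 at EB4, -2.14 at EB5 and -3.31 at EB8. Leaving out each library in turn gave -3.73 to -2.90 at EB8 and a wider -2.99 to -1.29 at EB5.

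Ntrk3 (ENSMUSG00000059146, NCBI37 chromosome 7, 85337248 to 85723294, minus strand) had 1.8 and 2.4 normalised counts in WT ES cells, at 2 and 3 reads, and 7.5 and 7.1 in KO ES cells. At EB4 Ntrk3 was at 17.5 and 10.7 in the WT and at 4.7 and 0 in the KO libraries. WT was above its ES level at EB4, and KO was not. At EB5 Ntrk3 was at 32.9 and 64.8 in the WT and at 14.2 and 2.9 in the KO libraries. At EB8 Ntrk3 was at 153 and 209 in the WT and at 9.5 and 18.1 in the KO libraries. KO, with 9 and 10 reads, lay above WT in ES cells, where WT was at or under the 3 reads taken as the floor of detection, and below WT at the 3 later stages.

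From ES cells to EB8 the WT level of Ntrk3 was 85.1-fold higher, with an exact 95% counting interval of 36.1 to 264 from 343 against 5 reads, and the KO mean was 1.89-fold higher. At EB8 the KO mean was 13.1-fold below WT, a log2 difference of -3.67 (SE 0.84). Leaving out each library in turn gave -4.10 to -3.23. The annotation lists 5 coding transcripts for Ntrk2, and 4 transcripts for Ntrk3 of which 2 are coding. Kinase and truncated receptor forms, which both genes are known to make, are not separated in a count per gene.

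The 3 ligands were expressed at low levels, and of these Gdnf was separated between genotypes at EB8. Bdnf (ENSMUSG00000048482, NCBI37 chromosome 2, 109514857 to 109567204, plus strand) stood at 149 and 47.8 normalised counts in the WT and at 55.6 and 55.0 in the KO libraries of ES cells. At EB4 Bdnf was at 73.4 and 172 in the WT and at 43.2 and 90.6 in the KO libraries, and at EB5 it was at 53.6 and 64.8 in the WT and at 51.2 and 54.3 in the KO libraries. At EB8 Bdnf was at 39.9 and 75.2 in the WT and at 43.3 and 61.8 in the KO libraries. The groups overlapped at all 4 stages, and the log2 difference at EB8 was -0.08 (SE 0.59). At ES it was -0.61, or 0.21 without WT ES replicate 1 and -1.42 without WT ES replicate 2, so that 1 library set its sign.

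Ntf3 (ENSMUSG00000049107, NCBI37 chromosome 6, 126051431 to 126116762, minus strand) stood at 8.2 and 11.2 normalised counts in the WT and at 1.7 and 3.6 in the KO libraries of ES cells. At EB4 Ntf3 was at 29.6 and 12.9 in the WT and at 4.7 and 14.0 in the KO libraries, and at EB5 it was at 17.9 and 11.0 in the WT and at 0.95 and 7.8 in the KO libraries. At EB8 Ntf3 was at 14.7 and 49.8 in the WT and at 12.7 and 17.0 in the KO libraries. KO lay below WT without overlap at ES and EB5, with log2 differences of -1.60 (-1.40 without WT ES replicate 2) and -1.86 (SE 0.84), and the groups overlapped at EB4 and EB8.

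Gdnf (ENSMUSG00000022144, NCBI37 chromosome 15, 7761011 to 7787575, plus strand) had at most 4 reads in a WT library and 3 in a KO library of ES and EB4. At EB5 it had 3 and 0 reads in WT and 0 and 15 in KO. At EB8 it had 32.6 and 60.4 normalised counts in WT, from 88 reads, against 2.1 and 19.2 in KO, from 20 reads. The ratio of WT to KO at EB8 was 4.38, with an exact 95% counting interval of 2.67 to 7.51 that leaves out the spread between libraries. The KO EB8 libraries were themselves far apart. Both WT values lay above both KO values at EB8.

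The receptors of the GDNF family were split, with Gfra1 lower in KO at ES, EB5 and EB8, and Ret lower at EB8. Ret (ENSMUSG00000030110, NCBI37 chromosome 6, 118101766 to 118147762, minus strand) stood at 99.2 and 76.5 normalised counts in the WT and at 75.5 and 89.3 in the KO libraries of ES cells. At EB4 Ret was at 64.7 and 87.9 in the WT and at 124 and 86.8 in the KO libraries. Before retinoic acid the gene was thus at a like low level in both genotypes. At EB5, after the first day of retinoic acid, Ret was at 389 and 653 in the WT and at 455 and 296 in the KO libraries. At EB8 Ret was at 728 and 861 in the WT and at 317 and 526 in the KO libraries. The groups overlapped at ES, EB4 and EB5, and both KO values lay below WT at EB8.

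The mean of Ret was 6.83-fold higher at EB5 than at EB4 in WT and 3.57-fold higher in KO. At EB8 the KO mean was 1.89-fold below WT, a log2 difference of -0.95 (SE 0.37), or -1.32 to -0.59 when each library was left out in turn. In each genotype all EB5 and EB8 values of Ret lay above all ES and EB4 values.

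Gfra1 (ENSMUSG00000025089, NCBI37 chromosome 19, 58310094 to 58530399, minus strand) stood at 137 and 84.5 normalised counts in the WT and at 35.7 and 20 in the KO libraries of ES cells. At EB4 Gfra1 was at 83.3 and 131 in the WT and at 95.8 and 35.7 in the KO libraries. No library had more than 137.4 before retinoic acid. At EB5 Gfra1 was at 1773 and 1795 in the WT and at 917 and 355 in the KO libraries. At EB8 Gfra1 was at 1419 and 1433 in the WT and at 366 and 403 in the KO libraries. The groups overlapped at EB4, and at the other 3 stages both KO values lay below both WT values.

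Of the 9 genes Gfra1 had the largest ratio of means between EB5 and EB4, as EB5 was 16.7-fold higher in WT and 9.67-fold higher in KO. The KO mean was 2.81-fold below WT at EB5 and 3.71-fold below at EB8. The log2 difference was -1.97 (SE 0.51) at ES, -0.82 at EB4, -1.64 at EB5 and -1.89 at EB8. Leaving out each library in turn gave -2.37 to -1.57 at ES (-2.32 without WT ES replicate 2) and -1.96 to -1.82 at EB8, but -2.33 to -0.96 at EB5, where the KO libraries were far apart. The exons of Gfra1 share 416 bases with a gene on the opposite strand, Gm16277, and the use of strand in the counting is not given in the sources used here.

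Gfra2 (ENSMUSG00000022103, NCBI37 chromosome 14, 71289927 to 71379645, plus strand) stood at 25.5 and 12.8 normalised counts in the WT and at 15.8 and 15.0 in the KO libraries of ES cells. At EB4 Gfra2 was at 24.1 and 32.2 in the WT and at 5.8 and 12.8 in the KO libraries, and at EB5 it was at 28.2 and 6.6 in the WT and at 9.5 and 15.5 in the KO libraries. At EB8 Gfra2 was at 11.6 and 21.2 in the WT and at 5.3 and 7.5 in the KO libraries. It showed no step at EB5 in either genotype, and its KO values lay below WT at EB4 and EB8, with log2 differences of -1.57 and -1.20 (SE 0.69).

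**Figure D1:**
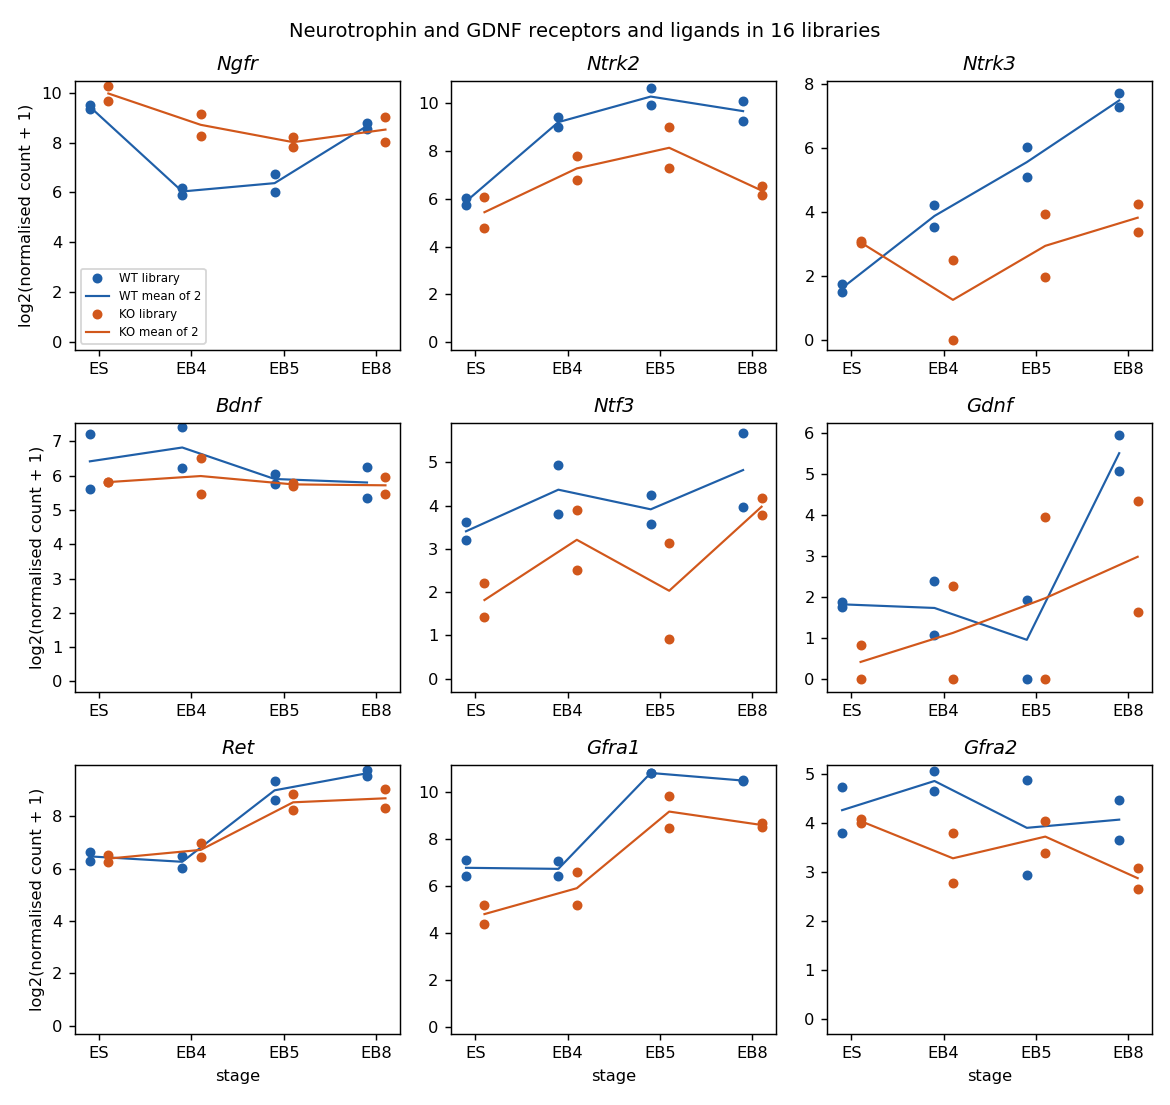
Level of each of the 9 genes as log2(normalised count + 1) in the 16 libraries by stage, with WT in blue and KO in orange. Points are single libraries and lines join the means of 2. At EB4 the Ngfr values of KO (308 and 568 normalised counts) sit above those of WT (71.2 and 59.0), and at EB8 the Ntrk2, Ntrk3 and Gfra1 values of KO sit below those of WT.

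In the bulk libraries fewer cells with a receptor and less of its RNA per cell cannot be told apart. The same fit across all 16124 tested genes gives the background for these differences, with an adjusted p of 0.05 as threshold. The set of members was chosen by differences of this kind, so nothing is read from their counts. Between KO and WT at ES, 0% of all tested genes passed the limma threshold, and 0 members did, while 1846 genes had an unadjusted p below 0.05, edgeR called 0 and DESeq2 476. At EB4 2.75% passed as higher and 3.37% as lower, and the only member past the threshold was Ngfr, as higher. At EB5 2.17% passed as higher and 2.17% as lower, and again Ngfr was the only member, as higher. Without KO replicate 2 Ngfr was not past it at EB4, nor at EB5 without any single one of the 4 libraries. At EB8 10.4% passed as higher and 12.5% as lower, and the 3 members past it were Ntrk2, Ntrk3 and Gfra1, as lower. Without single EB8 libraries Gfra1 was not past it in each of the 4 fits, and Ntrk3 was not without WT replicate 2 or KO replicate 1. The members past the threshold also changed with the tool. By DESeq2 they took in Gfra1 at ES, Ntrk2 at EB4, Ntrk2, Ntrk3 and Gfra1 at EB5, and Ret at EB8, and Ntrk3 passed at EB5 with a pseudocount of 5. Ngfr was not past it at EB4 or EB5 when only the compared groups were fitted, nor at EB5 without the filter or by edgeR. The balance of all genes at EB8 turned with the scaling, from 1677 higher and 2020 lower to 2278 and 1615 with upper-quartile rescaling and 2216 and 1854 with quantile normalisation. The median of all tested genes at EB8 moved from -0.03 to 0.11 and 0.05, and the 3 members stayed lower in KO under both.

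**Figure D2:**
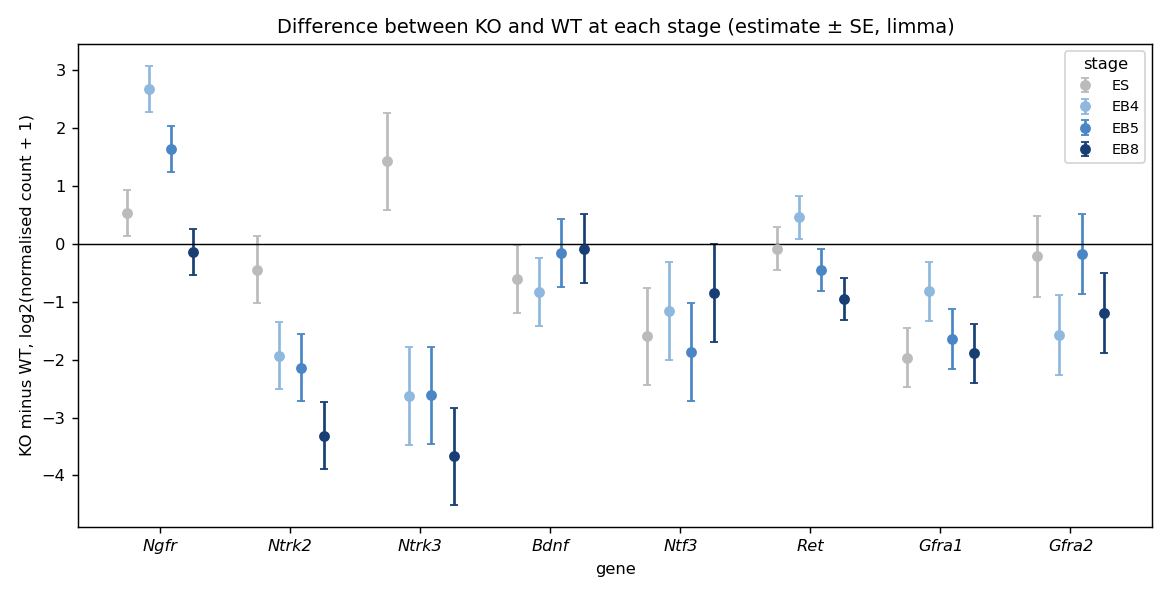
Difference between KO and WT on the scale of log2(normalised count + 1) for the 8 members that entered the fit, at ES, EB4, EB5 and EB8 (grey to dark blue). Points are estimates of the limma fit and bars are ± SE, from a spread per gene pooled over all 8 groups. For Ngfr the points go from 0.53 at ES through 2.67 at EB4 to -0.14 at EB8, and for Ntrk2 they go from -0.45 to -3.31.

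From ES cells to EB8 in WT, 24.0% of all tested genes were higher and 22.8% lower. The members were chosen on these libraries, so that calls on them here are a description and not evidence. Ntrk2, Ntrk3, Ret and Gfra1 were the 4 members past the threshold, as higher, with log2 changes of 3.77, 5.86, 3.17 and 3.71. Without WT ES replicate 2 these were 3.63, 6.00, 2.98 and 3.37. In KO, 19.7% of the genes were higher and 18.0% lower. Ret and Gfra1 were past the threshold as higher, with 2.30 and 3.79, Ngfr was past it as lower, with -1.45, and the values of Ntrk2 and Ntrk3 were 0.91 and 0.77. Without KO EB8 replicate 1 or KO ES replicate 2, Ngfr was not past it, at -0.94 and -1.17.

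The change from ES cells to EB8 differed between genotypes in 3.85% of the genes toward KO (620 genes) and in 3.44% toward WT (555 genes), which became 908 and 424 genes with upper-quartile rescaling. Ntrk3 had a difference of -5.09 (SE 1.19), a value that depends on the pseudocount because WT ES cells had 2 and 3 reads. Of the members it alone was past the threshold, again as a description only. It was not past it in 6 of the 8 fits that left out a library. For Ntrk2 the difference was -2.86 (SE 0.82) and for Ret -0.87 (SE 0.52). For Gfra1 it was 0.08 (SE 0.72), as KO lay below WT by a like amount at ES and at EB8.

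Per length, the order of the genes shifted between ES cells and EB8. The quantity compared here is the level in normalised counts per kb of exon. In ES cells of both genotypes Ngfr led, at 190 to 212 in WT and 239 to 353 in KO, and every other gene was at 25.5 or less. In WT EB8 Gfra1 led at 259 to 262, followed by Ngfr at 108 to 128 and Ret at 99.1 to 117, whose ranges overlapped. Ntrk2 (39.8 to 70.9) and Ntrk3 (29.3 to 39.8) came next, then Ntf3 (10.3 to 34.9), Gdnf (9.28 to 17.2) and Bdnf (6.82 to 12.9), each overlapping its neighbour. Gfra2 was lowest, at 3.29 to 6.02.

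In KO EB8 Ngfr led, at 74.7 to 152 normalised counts per kb. Gfra1 (66.9 to 73.5) and Ret (43.1 to 71.6) followed with overlapping ranges. Ntrk2, at 4.66 to 6.01, stood below both Ntf3 (8.87 to 11.9) and Bdnf (7.39 to 10.6), and Ntrk3 was at 1.81 to 3.46. Within a library the level per kb of Gfra1 was 2.615 and 2.23 times that of Ret in WT EB8 and 1.55 and 1.03 times in KO EB8. That of Ngfr was 0.62 and 0.38 times that of Ntrk2 in WT EB4, and 6.25 and 23.2 times in KO EB4.

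**Figure D3:**
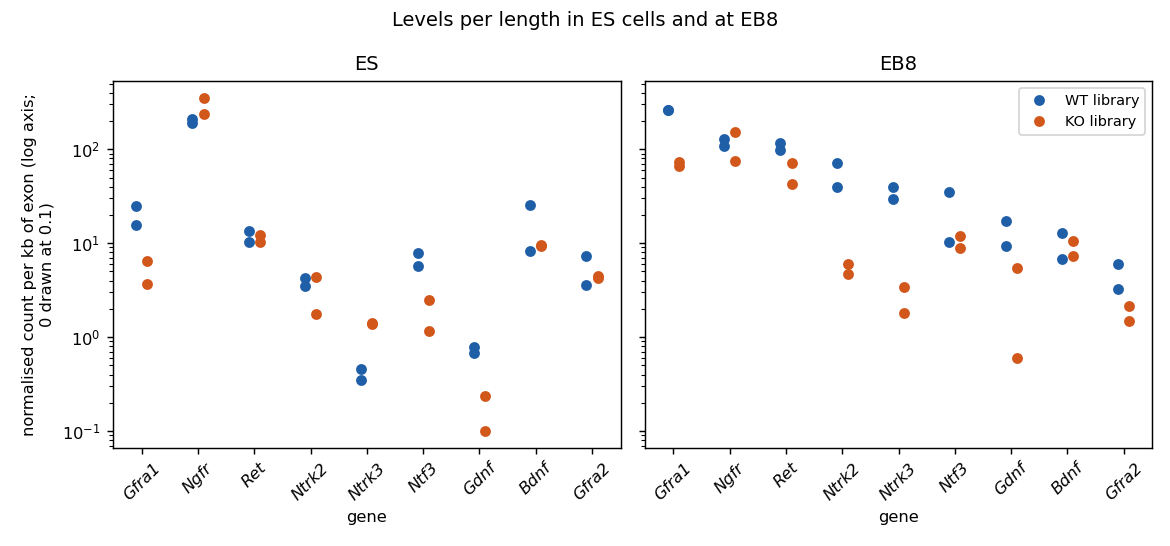
Level of the 9 genes per length, in normalised counts per kb of exon on a log axis with 0 drawn at 0.1, in each library of ES cells (left) and EB8 (right), with genes in the order of WT EB8. Points are single libraries. In ES cells Ngfr stands above all other genes, and at EB8 Ntrk2 and Ntrk3 lie at 4.66 to 6.01 and 1.81 to 3.46 in KO, below every WT point of these genes.

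The other genes of the pathways were tested in 5 lists of 52 genes, of which 47 passed the filter. The lists hold other ligands, other receptors and co-receptors, adaptors and signal transducers, enzymes of ligand processing, and genes known to respond to Trk or Ret signalling. They too were drawn up with earlier results of these libraries known. Between KO and WT no listed gene passed the limma threshold at ES, with 4 by DESeq2. At EB4 1 was higher and 6 were lower, against 2.75% and 3.37% of all tested genes. At EB5 2 were higher and 2 lower, against 2.17% each way. At EB8 3 were higher and 7 lower, against 10.4% and 12.5%, so that these counts lay near the shares of all genes. The EB8 counts became 3 and 5 with upper-quartile rescaling, and 4 and 6 with quantile normalisation. The median log2 difference of the 47 genes was -0.46 at EB4, -0.28 at EB5 and -0.16 at EB8, against 0, -0.01 and -0.03 for all tested genes. At EB8 the median was -0.44 for ligands, -1.02 for receptors, -0.14 for adaptors, -0.04 for processing enzymes and 0.86 for response genes.

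Of the 10 tested other receptors and co-receptors, 5 passed as lower in KO than in WT at EB8 and none as higher. Of all tested genes 12.5% and 10.4% did. Sort1, which encodes sortilin, the partner of p75 in binding pro-neurotrophins, was at 7521 and 8834 normalised counts in the WT and at 2999 and 4041 in the KO libraries (log2 difference -1.23, SE 0.25, limma adjusted p 0.00487). Its relative Sorcs3 had 150.2 and 167 against 29.5 and 19.2 (-2.68, SE 0.75, limma adjusted p 0.0222). Outside WT EB8, Sorcs3 was at 0 to 29.5 normalised counts. It passed the filter on low values only through WT EB8, so its call is a description. Lingo1, which encodes a membrane protein known to associate with p75, had 206 and 220.2 against 34.8 and 41.5 (-2.45, SE 0.37, limma adjusted p 0.000704). Ncam1, a cell adhesion molecule that can also bind GDNF, had 2708 and 3751 against 602 and 841 (-2.16, SE 0.51, limma adjusted p 0.00985). Sdc3, a heparan sulphate proteoglycan, had 1451 and 1625 against 648 and 699.9 (-1.19, SE 0.37, limma adjusted p 0.0343).

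Lingo1 passed at EB8 without any single library, Sort1 was lost without KO replicate 1 (limma adjusted p 0.0505), and Ncam1 without WT replicate 2 or KO replicate 1 (up to 0.0754). Sorcs3 and Sdc3 were lost without each of the 4 libraries (0.0628 to 0.119 and 0.0932 to 0.147). At EB4, 3 of 10 receptors were lower in KO than in WT, against 3.37% of all tested genes. These were Sort1 (-1.25, limma adjusted p 0.0183), Sorcs2 (-1.63, 0.0143) and Lingo1 (-1.35, 0.0487). Each lost its call in 3 or more of the 4 fits without a library. The median log2 difference of the list at EB4 was -1.12.

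The ETS factors Etv4 and Etv5, which are known targets of Ret and of other receptor kinases, were higher in KO than WT at EB8. Etv5 had 301 and 421 normalised counts in the WT and 3274 in each of the KO libraries of EB8 (log2 difference 3.20, SE 0.28, limma adjusted p 3.03e-05). It fell from ES cells to EB8 in both genotypes, with log2 changes of -4.75 in WT and -2.002 in KO. The difference of these changes was 2.75 (SE 0.39, limma adjusted p 0.00334, 0.0165 or less without any single library). Etv4 had 126 and 291 in WT EB8 against 913 and 1759 (2.72, SE 0.52, limma adjusted p 0.00326). Both passed at EB8 without any single library. Etv4 lies on chromosome 11, whose level was higher in KO replicate 1. The higher KO value of Etv4 was that of replicate 1 at EB4 and EB5 and of replicate 2 at ES and EB8. A link to the chromosome level was not tested. At EB5 Etv4 was at 161 and 199.9 in the WT and at 1319 and 869 in the KO libraries (2.57, limma adjusted p 0.0229). Etv5 had 2553 and 1770.2 against 7098 and 5271 (1.52, limma adjusted p 0.015). At EB4 Etv5 alone of the list was higher in KO than in WT (1.35, limma adjusted p 0.0186). The EB5 call of Etv4 was lost without each of the 4 libraries, that of Etv5 in 3 of 4 and its EB4 call in 2 of 4. The other 5 tested genes of the list, Spry1, Dusp6, Egr1, Vgf and Arc, did not pass in any comparison of KO with WT.

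Of the 6 enzymes of ligand processing, 3 were lower in KO than in WT at EB4, against 3.37% of all tested genes. At EB5 2 were lower, against 2.17%, and at EB8 1 was, against 12.5%. Cpe, the carboxypeptidase that also sorts pro-Bdnf, had 1317 and 1570.9 normalised counts in WT EB4 against 352 and 146 in KO (log2 difference -2.66, SE 0.47, limma adjusted p 0.011). Furin, a convertase of pro-neurotrophins, had 2498 and 3016 against 1219 and 1118 (-1.23, SE 0.20, limma adjusted p 0.00943). Plat, the tissue plasminogen activator, had 143 and 83.6 against 23.4 and 25.5 (-2.12, SE 0.50, limma adjusted p 0.0322). At EB5 Plat (log2 difference -2.35, limma adjusted p 0.0258) and Cpe (-2.69, 0.0132) were lower in KO than in WT. At EB8 Cpe was still lower in KO, with 5070.0 and 4659 against 1015 and 1592 (-1.93, SE 0.47, limma adjusted p 0.0111), whereas Furin had 1777 and 1797 against 2000.4 and 1651 and Plat 1745 and 1165 against 787 and 2260.4. Cpe and Plat lie on chromosome 8, whose level was higher in WT replicate 1 of the embryoid bodies. Without any single library the EB4 call of Plat was lost (log2 difference -2.50 to -1.74, limma adjusted p 0.0591 to 0.195). Cpe lost its call in 2 of 4 such fits at EB4 and in 3 of 4 at EB5 and at EB8, and Furin in 2 of 4 at EB4.

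Of 21 tested adaptors and signal transducers, 1 was higher and 1 lower in KO than in WT at EB8. Of all tested genes 10.4% and 12.5% were, so that neither count was above that share. Shc1 was higher, with 1425 and 1705 normalised counts in WT against 3009 and 3105 in KO (0.97, SE 0.22, limma adjusted p 0.00853). Plcg1, the phospholipase recruited by Trk receptors, was lower, with 5145 and 6287 against 3905 and 4152 (-0.50, SE 0.15, limma adjusted p 0.033). The call for Plcg1 was lost with both other scalings (limma adjusted p 0.115 and 0.12) and in 3 of 4 fits without a library, and that for Shc1 without WT replicate 1 (0.0647). No adaptor passed at ES, EB4 or EB5. Of the other ligands, the 3 tested (Ntf5, which encodes neurotrophin-4, Nrtn and Artn) did not pass at any stage. The genes too low to be tested included Pspn, Gfral, Shc3 and Dok6.

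The counts of listed genes moved with single libraries. At EB4 the 7 calls became 3, 1, 4 and 0 without WT replicate 1, WT replicate 2, KO replicate 1 and KO replicate 2, 0 when only the EB4 groups were fitted and 11 by DESeq2. At EB5 the 4 calls became 1, 0, 2 and 0 in the same order, and 2 when only the EB5 groups were fitted. At EB8 the 10 calls became 6, 5, 5 and 7. From ES cells to EB8, 19 of 47 listed genes rose and 9 fell in WT, against 24.0% and 22.8% of all tested genes, and 18 rose and 4 fell in KO, against 19.7% and 18.0%. In WT 20 rose and 8 fell without WT ES replicate 2.

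**Figure D4:**
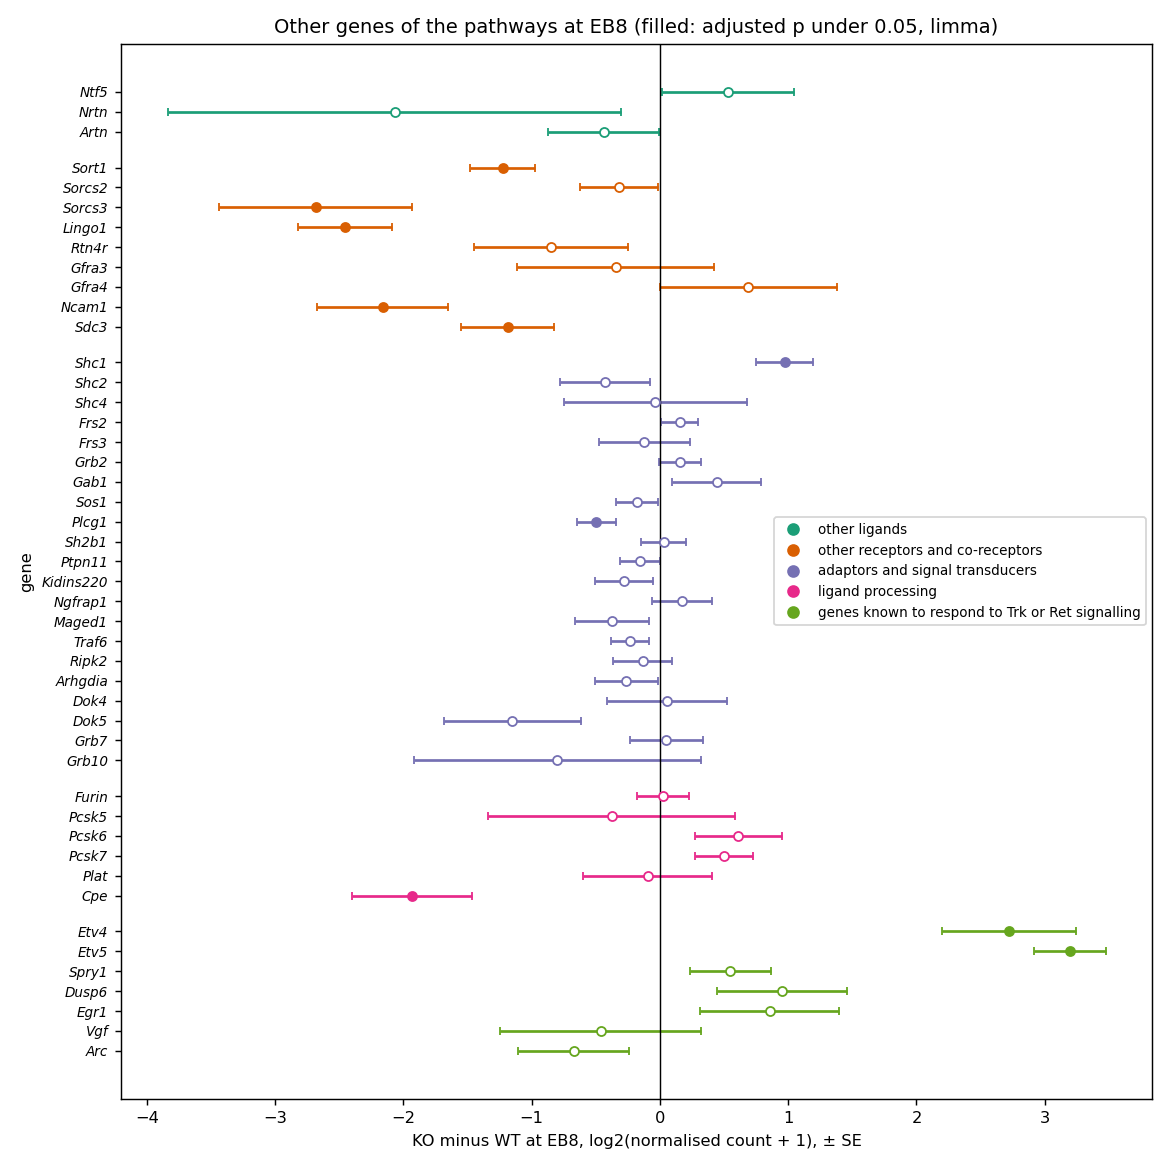
Difference between KO and WT at EB8 on the scale of log2(normalised count + 1) for the tested genes of the 5 lists, with 1 receptor not drawn, bars of ± SE and a colour for each list. Filled points passed the limma threshold. The 5 filled receptors and Cpe lie at -2.68 to -1.19, and Etv4 and Etv5 lie at 2.72 and 3.20.

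**Figure D5:**
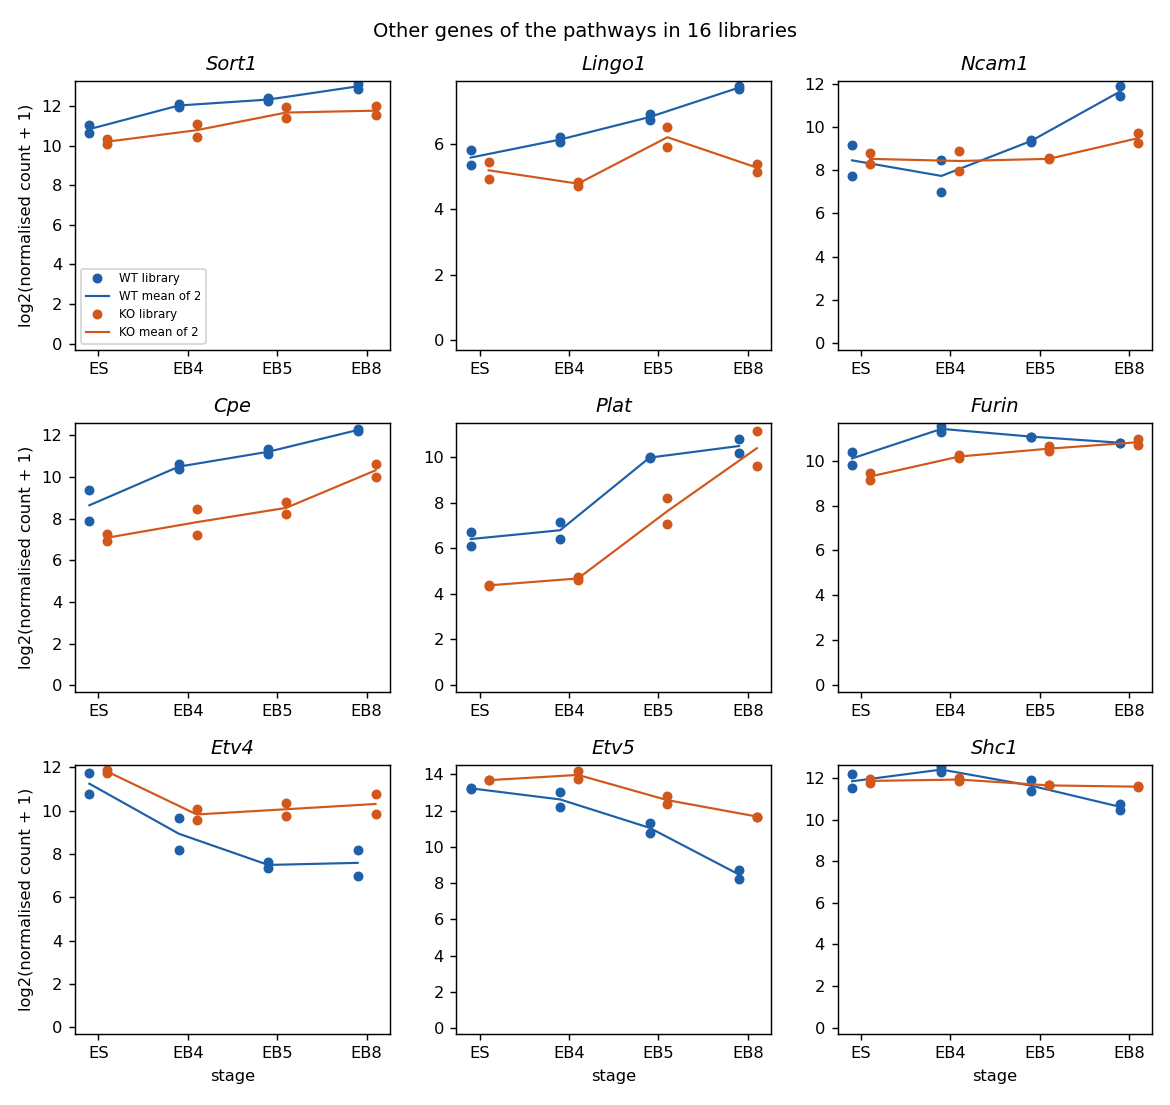
Level of 9 of the listed genes as log2(normalised count + 1) in the 16 libraries by stage, with WT in blue, KO in orange, points for single libraries and lines joining the means of 2. In WT the Etv5 values go from 9834 and 9400.0 normalised counts in ES cells to 301 and 421 at EB8, and in KO from 13043 and 13195 to 3274 and 3274.

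Markers of other cell types moved with these receptors, and their part in the differences was not tested. Summed normalised counts of 5 pluripotency genes (Pou5f1, Nanog, Zfp42, Esrrb, Klf4) were 1225 to 1274 in WT EB8 and 18150 to 19790 in KO EB8. Of these, 4 of 5 passed the limma threshold as higher in KO, against 10.4% of all tested genes. Sums of 5 neural progenitor genes (Pax6, Nes, Msi1, Hes5, Neurog2) were 24650 to 27500 in WT EB8 and 4791 to 4836 in KO EB8. Here 4 of 5 passed as lower, against 12.5% of all tested genes. Of these, Hes5 (811 and 1101 in WT EB8) and Neurog2 (831 and 553) passed the filter on low values only through WT EB8. Their calls are therefore a description. KO EB8 libraries, labelled as neural precursor cells, had 14.8 and 5.3 of Hes5 and 5.3 and 2.1 of Neurog2. Sums of 7 neuronal genes were 19080 to 25420 in WT EB8 and 1596 to 1763 in KO EB8, with 6 of 7 past the threshold as lower.

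Sums of 5 neural crest genes were 856 to 1068 in WT EB5 against 485 to 504 in KO EB5, and 1053 to 1580 against 314 to 502 at EB8. Within this list Sox10 was higher in KO at EB8, with 7.4 and 20.1 in WT against 168 and 73.5 in KO. Sums of 5 genes of the intermediate mesoderm, the source of the nephric duct, were 5755 to 9492 in WT EB8 and 1721 to 2444 in KO EB8. Here 4 of 5 passed the threshold as lower, against 12.5% of all tested genes.

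Sums of 7 genes of fibroblasts, the feeder cell type of the ES cultures, were 1295 to 2385 in WT and 320 to 587 in KO ES cells. The Gfra1 values of WT ES cells were also higher. Within each genotype the ES library with the higher sum had the lower Gfra1 value, but 2 libraries a genotype cannot show a link. A link between these sums and Gfra1 was not tested. Of the 6 tested genes of this list, 0 passed the limma threshold between KO and WT at ES. At EB8 the sums were 3260 to 3920 in WT and 1532 to 4426 in KO, with no gene past the threshold. The genes of this list differed in level in the ES libraries. Lum was at 0 to 0.9, whereas Col1a1 was at 662 and 1451 in WT and 119 and 170 in KO. Fbn1 was at 391 and 200 in WT and 159 and 269 in KO. Sums of 5 visceral endoderm genes were 761 to 795 in WT EB8 and 212 to 309 in KO EB8. Of these genes 2 could be tested and 1 passed as lower, against 12.5% of all tested genes. Ttr was at 0 to 0.8 in the ES libraries, and Gata4 at 34.0 to 106.

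Genes whose pattern over the 16 libraries was most like that of a member are given as a description, with Pearson's r on the log2 scale and no p. The libraries share their stages, and the ES libraries share their greater depth. For Ret these were Hoxc4 and Hoxa4 (both r = 0.976), which are homeobox genes, and for Gfra1 Plxna2 (0.965), a semaphorin receptor, and Col2a1 (0.963). For Ngfr they were Jam2 (0.965) and Slc25a12 (0.954), for Ntrk2 Gnao1 (0.941) and Gnas (0.936), and for Ntrk3 Foxp4 (0.952) and Sft2d3 (0.949). For the weakly expressed Bdnf, Ntf3 and Gfra2 the highest r was 0.812, 0.818 and 0.826.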

How the data were processed

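Poly-A libraries were made and sequenced as single-end reads, with mm9 (NCBI37) as the build. The submitters' processing notes name TopHat2 2.0.10, HTSeq 0.5.4p3, DESeq2 1.0.19 and CASAVA 1.7 and 1.8, without their roles. The annotation behind the counts and their strandedness are not given in the sources used here. The values deposited by the authors are a signal per gene, a read count scaled by 1 factor per library. Dividing each library by its smallest step gave whole reads for 100% of values (tolerance 0.01 reads), from which depth was taken (22442118 to 40711826 reads). Gene positions and exon lengths are from GENCODE M1, which held 27603 of 27807 identifiers.

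limma 3.58.1 (R 4.3.3) was fitted to log2(normalised count + 1), which understates changes of low genes, with a mean per group over all 16 libraries, a trended prior and Benjamini-Hochberg adjustment over the 16124 genes with a mean of at least 10. The threshold was an adjusted p of 0.05. The script was tested on simulated data. Alternatives were a pseudocount of 5, omission of the filter, a minimum mean of 50, upper-quartile and quantile scaling, only the compared groups, a replicate block, edgeR 4.0.16 and DESeq2 1.42.0 on the recovered reads, and leaving out each library. The floor was 3 reads. Floors and counting intervals cover counting error only, as PCR copies are not independent molecules. The spread of each gene was pooled over all 8 groups, so that its SE for KO against WT was the same at every stage. With 2 libraries a group, p-values measure this pooled spread between libraries, not that of the compared groups alone. Members and lists were chosen with earlier results of these data known. Members were all named. Of each pathway list, genes past the threshold between KO and WT at any stage were named, at most 6 a list, those with the largest change at EB8 first. For likeness, the 2 genes with the highest r were taken. Sox1, listed as a neural progenitor marker, was not analysed here. Same-numbered libraries of WT and KO were not shown to be pairs, as the correlation of their replicate differences was 0.34 at ES, -0.06 at EB4, -0.21 at EB5 and -0.13 at EB8. Between ES and EB8 it was 0.24 within KO and -0.05 within WT. Some genes of the lists are not reported here by name and count only in the totals of their lists.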

Additional observations from a re-analysis of the deposited data

Results flagged for a closer look

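The fitted difference between genotypes in the change from ES to EB8 was past the threshold for 2 genes of the pathway lists and for 1 member. The lists and the member were chosen with earlier results of these libraries known, so the values are not independent evidence. Etv5 had a difference (KO minus WT) of 2.75 on the log2 scale (limma adjusted p 0.00334). The 4 ES libraries had 9400.0 to 13195 normalised counts of it, the WT EB8 libraries 301 and 421, and each KO EB8 library 3274. Lingo1 had a difference of -2.06 (limma adjusted p 0.0328). It had 40.0 and 55.8 normalised counts in WT ES rising to 206 and 220.2 at EB8, against 29.9 and 42.9 in KO ES and 34.8 and 41.5 in KO EB8. In 7 of the 8 fits without a library it did not pass, with adjusted p from 0.053 to 0.118. Ntrk3 had a difference of -5.09, which is a description because the gene was chosen on these libraries, and WT ES cells had 2 and 3 reads of it.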

How the results depend on the processing

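Member differences at EB8 kept their direction for Ntrk2, Ntrk3, Ret and Gfra1 when any single library was left out, and those of Ngfr and Bdnf at EB8 did not. The number of genes past the threshold between KO and WT moved most. At ES it was 0, but 16 with a pseudocount of 5, 1 without a filter, 16 with a mean of at least 50, 19 with upper-quartile rescaling, 18 with the replicate block and 476 with DESeq2, and 0 to 121 without a library (121 without WT ES replicate 1). At EB4 it was 986, but 609 without a filter, 0 in a fit of only the compared groups (2984 at an unadjusted p below 0.05), 2077 with DESeq2 and 0 to 753 without a library. At EB5 it was 700, but 447 without a filter, 72 in a fit of only the compared groups, 1719 with DESeq2 and 0 to 525 without a library. The 0 at EB4 and EB5 came without replicate 2 of KO. At EB8 it was 3697, and 1907 to 2408 without a library. From ES to EB8 in KO it was 6073, and 3859 to 4442 without a library. For the difference of these changes it was 1175, but 2330 with DESeq2, and 449 to 2063 without a library. Fewer libraries in a fit leave fewer degrees of freedom, and otherwise the cause was not tested. With the replicate block 4081 genes passed at EB8, and with the KO numbers exchanged, an alternative chosen after seeing the data, 1000 at EB5 and 4154 at EB8. None of the changes named for pathway genes reversed in direction. Members below about 20 normalised counts (Ntrk3 in ES cells, Ntf3, Gdnf, Gfra2) are limited by depth.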

Other observations

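Nrtn, which encodes neurturin, the ligand of Gfra2, had 174 and 1.1 normalised counts in the KO EB8 libraries and 165 and 2.6 in the KO EB4 libraries. The KO EB5 libraries had 159 and 61.1 and the KO ES libraries 172 and 105, while the 8 WT libraries had 65.1 to 159. The gene was singled out after its values were seen.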
